A study of Schizosaccharomyces pombe with 3 samples.

Results

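The Clr6 complex subunit genes studied here are pst1, pst3 and png2 of the fission yeast Schizosaccharomyces pombe. They are the 3 genes, of 17 listed for the Clr6 histone deacetylase complexes, that lie on the tiled stretch of chromosome II, out of 886 protein-coding genes of that chromosome with at least 3 probes. Each gene was described by the 60-base probes inside it and within 500 bp on either side. That gave 121 probes for pst1, 132 for pst3 and 48 for png2, spaced 50 bp apart. Acetylation of lysine 9 of histone H3 (H3K9ac) was mapped by chromatin immunoprecipitation on 2-colour tiling arrays in 3 strains: wild type, alp13∆ (a deletion of alp13) and asf1-1 (an allele of the histone chaperone gene asf1). Each strain had 1 array. Per the labels, cultures grew exponentially in rich medium (YEA) at 30 °C, were cross-linked at 18 °C with 3% paraformaldehyde, and gave sonicated fragments of 500 to 1000 bp. Alleles other than alp13∆ and asf1-1, and the mating types, are not given in the sources used here.

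Histone deacetylases remove acetyl groups from histones, and H3K9ac is a mark of active promoters. Clr6 is a class I deacetylase that works in several complexes built on different Sin3-family scaffold proteins. Pst1 is the scaffold of one of them, which also holds Png2, an ING-family protein with a PHD finger. Alp13, a chromodomain protein, belongs to another Clr6 complex, built on Pst2, and Pst3 is another Sin3-family protein. The alp13∆ comparison therefore shows H3K9ac on genes for deacetylase subunits in a strain that lacks a different deacetylase subunit. The genes alp13, clr6, pst2, prw1, sds3, cph1 and cph2 had no values on these arrays, so neither the deletion nor the rest of the complexes could be read.

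A log ratio here is log2 of Cy5 (immunoprecipitated DNA) over Cy3 (whole-cell extract DNA), with each array's median at 0, and a change is the mutant array's value less the wild-type array's. A gene was called higher or lower at a change of at least 1.5-fold in its mean, 0.585 on the log2 scale. With 1 array per strain no difference has a replicate check, no test was possible, and every SD below is across probes of 1 array. The precision of 1 probe's change, from 239 pairs of near-duplicate probes, was 0.133 (SD) for alp13∆ and 0.0768 for asf1-1. Over all 43912 probes the wild-type array correlated at r = 0.894 with asf1-1 and at r = 0.476 with alp13∆. Median Cy3 intensity ran from 1619 to 1811 and median Cy5 intensity from 1808 to 2101. The strain of each array was taken from the labels. The authors' deposited value table did not follow the arrays of the same labels: its wild-type column correlated at r = 0.225 with the wild-type array, its alp13∆ column at 0.528 with the alp13∆ array (0.645 with wild type and 0.687 with asf1-1) and its asf1-1 column at -0.58 with the asf1-1 array. No array of total H3 was analysed here, so a change in H3K9ac cannot be told apart from a change in the amount of H3.

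The gene calls below rest on probes inside the genes. The stretches upstream are printed because the H3K9ac changes there differed in size among the genes. Upstream, only the pst1 mean passed 1.5-fold, and only in alp13∆ (-1.98, against -0.58 for pst3 and -0.36 for png2). The 250 bases before each annotated start are shown 5′ to 3′ on the strand of the gene, read from the ASM294v3 reference of RefSeq. The stretch before atx1, the copper chaperone gene that follows png2, is added because the lowest values near png2 lay there. The pst1 stretch is chrII:2451778-2452027 (plus strand), the pst3 stretch chrII:1094742-1094991, the png2 stretch chrII:1121962-1122211 and the atx1 stretch chrII:1120322-1120571 (all minus strand). Capitals mark the only match to the motifs searched, an MluI cell cycle box.
pst1: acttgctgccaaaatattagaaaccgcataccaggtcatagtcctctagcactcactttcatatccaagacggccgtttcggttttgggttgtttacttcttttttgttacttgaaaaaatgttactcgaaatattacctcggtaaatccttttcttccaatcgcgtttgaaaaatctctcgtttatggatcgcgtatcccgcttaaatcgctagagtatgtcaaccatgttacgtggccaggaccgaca
pst3: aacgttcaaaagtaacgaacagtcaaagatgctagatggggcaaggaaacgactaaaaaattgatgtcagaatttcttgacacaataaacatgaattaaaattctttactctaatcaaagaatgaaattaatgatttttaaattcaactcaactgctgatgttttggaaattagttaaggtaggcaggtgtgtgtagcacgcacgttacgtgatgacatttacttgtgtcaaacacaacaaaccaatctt
png2: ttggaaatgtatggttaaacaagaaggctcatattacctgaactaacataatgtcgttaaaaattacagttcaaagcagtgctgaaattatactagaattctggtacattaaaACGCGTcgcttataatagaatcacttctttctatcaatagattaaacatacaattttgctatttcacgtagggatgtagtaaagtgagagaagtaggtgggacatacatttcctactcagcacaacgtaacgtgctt
atx1: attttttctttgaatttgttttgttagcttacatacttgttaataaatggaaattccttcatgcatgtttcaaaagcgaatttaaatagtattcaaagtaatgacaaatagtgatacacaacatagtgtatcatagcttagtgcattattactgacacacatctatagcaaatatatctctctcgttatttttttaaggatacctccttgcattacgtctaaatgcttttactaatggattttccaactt

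The pst1 stretch held 41.2% G or C, against 33.2% for pst3, 34.0% for png2 and 28.4% for atx1, and a median of 32.0% over the same window of 5112 protein-coding genes. Motifs were searched on both strands. The box ACGCGT, which the cell cycle factor MBF binds, lay 137 bases before the png2 start and occurs in 2.64% of all these windows. The TATA box TATAAA (44.41% of windows), the HomolD box CAGTCACA of ribosomal protein gene promoters (2.62%), the tract AAAAAAAA (18.94%) and the CRE-like TGACGT (5.52%) had no match in the 4 stretches, which says only that these letters are absent there. No window of 25 bases from the 3 genes occurred a further time in the genome. The flanks were not searched, and a similar target with scattered mismatches need not share such a window, so cross-hybridisation was not excluded.

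In wild-type cells the Sin3-family genes carried less H3K9ac in their bodies than most genes, and png2 carried more than they did. The mean log ratio was -0.56 ± 0.45 for pst1 (SPBC12C2.10c, ASM294v3 chromosome II, 2452028 to 2457119, plus strand; 101 probes), which ranked 762 of 886 genes from the top. It was -0.62 ± 0.38 for pst3 (SPBC1734.16c, 1089163 to 1094741, minus strand; 112 probes), at rank 776. For png2 (SPBC1709.11c, 1120582 to 1121961, minus strand; 28 probes) it was 0.47 ± 0.35, at rank 248. The median of all genes was 0.08, and that of the 130 genes of 3000 bp or more was -0.40, so both long members lay below the median of their length class as well. For png2 the median of the 377 genes of 1000 to 2000 bp was 0.25, which lies within the SD across its probes. The order pst3, pst1, png2 holds as a description only, and pst3 and pst1 differed by less than the SD across the probes of either.

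Along pst1 and pst3 the wild-type mark formed a valley, and along png2 a plateau at the start. In pst1 the log ratio was highest (1.24) at -487.5 bp from the start, fell to -1.32 at 2562.5 bp into the gene, and came back to a mean of 0.73 in the 500 bp downstream. In pst3 it ran from 0.53 at -399.5 bp to -1.23 at 2750.5 bp inside. Genes of 3000 bp or more had such a valley in general. Their median was 0.65 at 250 to 500 bp before the start and -0.76 between 2000 and 2250 bp. In the latter bin pst1 ranked 78 and pst3 ranked 85 of 129. In png2 the highest probe lay 170.5 bp past the start (1.06), and the mean was 0.90 in the first part of the gene, 0.42 in the middle part and 0.11 in the last part, each of equal length. The ends of these valleys are shared with other genes. The 3′ end of pst1 lies 162 bp from the start of izh2 on the same strand. The last 1872 bp of pst3 overlap rsc4, a gene for a subunit of the RSC chromatin remodelling complex on the opposite strand, and probes there cannot be assigned to either gene. The end of png2 lies 260 bp before the start of atx1.

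**Figure D1:**
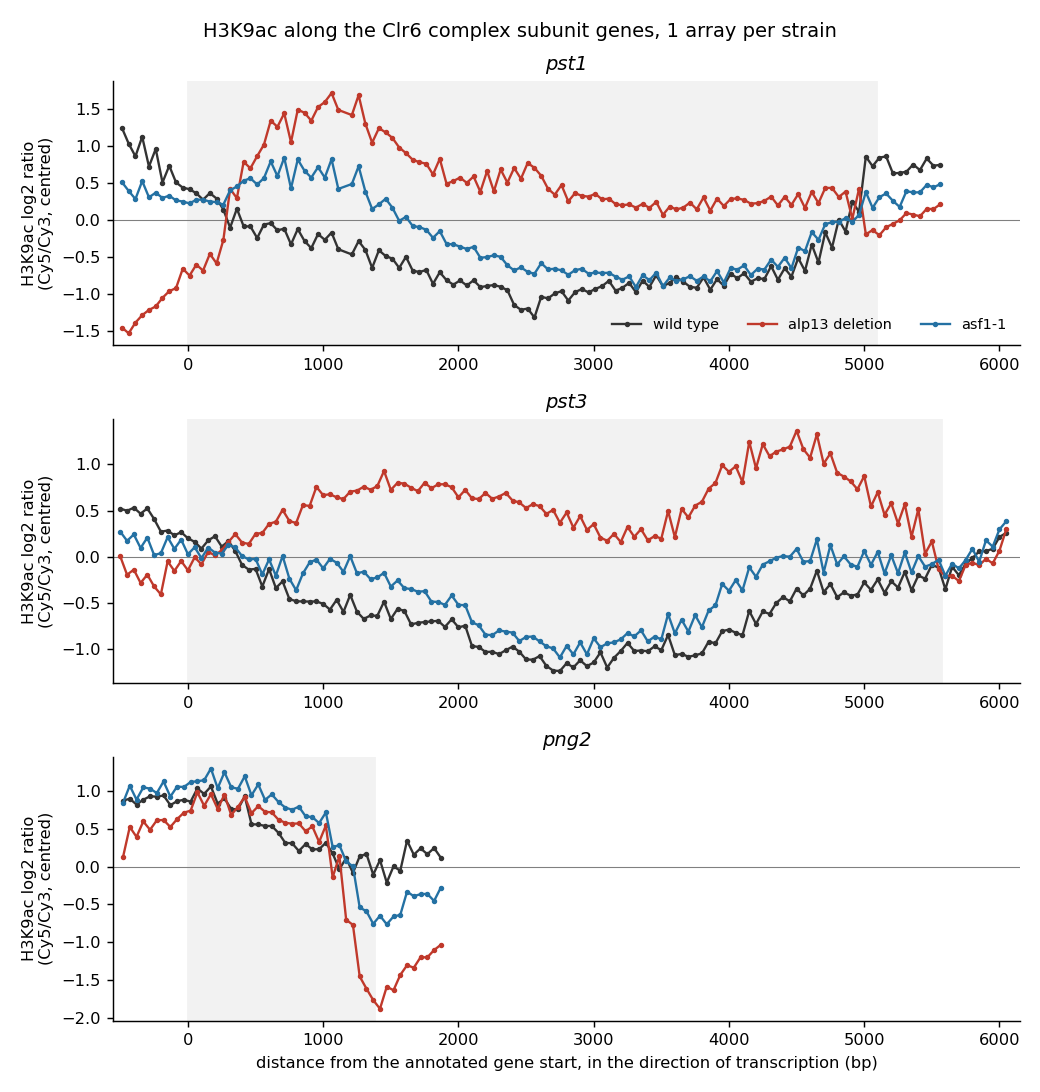
H3K9ac log2 ratio (Cy5 over Cy3, array medians at 0) of every probe against its distance from the annotated gene start, for pst1, pst3 and png2; grey shading is the gene, points are probes and each line is the array of 1 strain. In pst1 and pst3 the alp13∆ line lies above the wild-type line through most of the gene and below it upstream, while in png2 both mutant lines drop under wild type at the 3′ end.

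In alp13∆ the H3K9ac ratio of Cy5 over Cy3 rose over the bodies of both Sin3-family genes by more than 2-fold, and did not over png2. On Cy5 alone the rise was under 2-fold, at 0.62 for pst1 and 0.84 for pst3. The pst3 log ratio was -0.62 in wild type, 0.58 in alp13∆ and -0.37 in asf1-1, and its alp13∆ change of 1.20 ± 0.54 is 2.29-fold. The pst1 log ratio was -0.56, 0.51 and -0.22 in the same order, an alp13∆ change of 1.07 ± 0.71, or 2.10-fold. The png2 log ratio was 0.47, 0.30 and 0.67, an alp13∆ change of -0.16 ± 0.60. So 2 of 3 members were called higher and 0 lower, against 15.3% of 886 genes called higher and 21.7% called lower. Among genes of 3000 bp or more, 53.8% were higher and 0.769% lower, and their median change was 0.63. Read against that length class, pst3 ranked 10 and pst1 ranked 18 of 130. Among the 377 genes of 1000 to 2000 bp, the class of png2, the median change was -0.18 and png2 ranked 185.

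Both calls held in the 13 alternatives run, with values from 0.62 (Cy5 alone) to 2.25 (arrays centred on intergenic probes) for pst1 and from 0.84 to 2.38 under the same settings for pst3. The sign of png2 turned in 5 of them, among them the gene median (0.04) and the coding span alone (0.094), a span chosen after seeing the data.

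Within pst1 the alp13∆ profile was turned over relative to wild type. Upstream, the mean log ratio was 0.81 in wild type, -1.17 in alp13∆ and 0.35 in asf1-1, and all of 10 probes were lower in alp13∆, with a mean change of -1.98 ± 0.53. That is the 26th lowest upstream change of 884 genes, whose median was -0.93, and 72.4% of which were lower by 1.5-fold. The whole 1113 bp between pst1 and gfa1, which starts in the other direction and encodes an enzyme of hexosamine synthesis, changed by -2.03 ± 0.43 over 22 probes. Its log ratio went from 0.96 in wild type to -1.07 in alp13∆. In the first part of the gene the change was 1.04 ± 1.00, at rank 9 of 866 genes, with 25 probes higher and 5 lower, and on Cy5 alone it was 0.31. That rank sets the long first part of pst1 against the shorter first parts of most genes, so the distances are not alike. The middle part was at 1.41, with 34 of 34 probes higher, and the last part at 0.77. Downstream the change was -0.70 ± 0.17, with 8 of 10 probes lower. It was the 292nd lowest of 886 genes, whose median was -0.39 and of which 40.1% were lower by 1.5-fold. The downstream change of pst1 was under 1.5-fold without centring (-0.29), with normexp (-0.47) and on Cy5 alone (-0.40), and it turned to 0.48 with intergenic centring.

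The raised stretch of pst1 was 1 unbroken run of 87 probes, from 412.5 to 4762.5 bp past the start. The highest single change, 2.02, lay at 2562.5 bp, and the highest alp13∆ log ratio, 1.71, at 1062.5 bp. Between 1000 and 1250 bp the log ratio was -0.33 in wild type, 1.55 in alp13∆ and 0.57 in asf1-1, and the alp13∆ change of 1.88 was rank 1 of the 129 long genes measured in that bin, whose median was 0.75. At 250 to 500 bp before the start pst1 ranked 129 of 129 (-2.37, against a median of -1.09). The difference between the change over the body and that upstream, which does not depend on the centring of the arrays, was 3.05 in pst1. The median over long genes was 1.56, and pst1 ranked 1 of the 129 with an upstream value. These ranks describe 1 pair of arrays and the ratio of the 2 channels. In the bin from 1000 to 1250 bp Cy5 changed by 0.64 and Cy3 by -1.27. On Cy5 alone the difference between body and upstream was 1.95.

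In pst3 a similar share of the gene was raised, 95 of 112 probes against 87 of 101 in pst1, and the upstream decrease was smaller. Upstream, the log ratio was 0.40 in wild type, -0.18 in alp13∆ and 0.15 in asf1-1. The mean upstream change of -0.58 in alp13∆ was below 1.5-fold, with 6 of 10 probes lower, and it became 0.61 with arrays centred on intergenic probes. The change over the body exceeded that upstream by 1.77, at rank 48 of the 129 long genes with an upstream value, whose median was 1.56. Between 2000 and 2250 bp the alp13∆ change of pst3 was 1.56, rank 20 of 129, against a long-gene median of 1.14. No share of raised probes is given here for other long genes. In the middle part 37 of 37 probes were higher, and the log ratio there was -1.03 in wild type, 0.45 in alp13∆ and -0.83 in asf1-1, a change of 1.48 ± 0.17. A single run of 94 probes from 650.5 to 5300.5 bp past the start was raised.

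Within that run the alp13∆ log ratio was uneven. It was 0.63 between 2250 and 2500 bp and 0.23 between 3000 and 3250 bp, and it came to its highest probe, 1.36, at 4500.5 bp, inside the stretch shared with rsc4. In the shared 1872 bp the mean change was 1.28 ± 0.50 (37 probes), and in the 3707 bp of pst3 that rsc4 does not cover it was 1.15 ± 0.55 (75 probes). Without the overlap pst3 thus still passed 1.5-fold. The coding span of pst3 alone, which rsc4 does not reach, gave 1.18 ± 0.51. On the upstream side, chs2, of the chitin synthase family, starts 479 bp away in the other direction and was at 0.47 ± 0.44 in alp13∆.

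**Figure D2:**
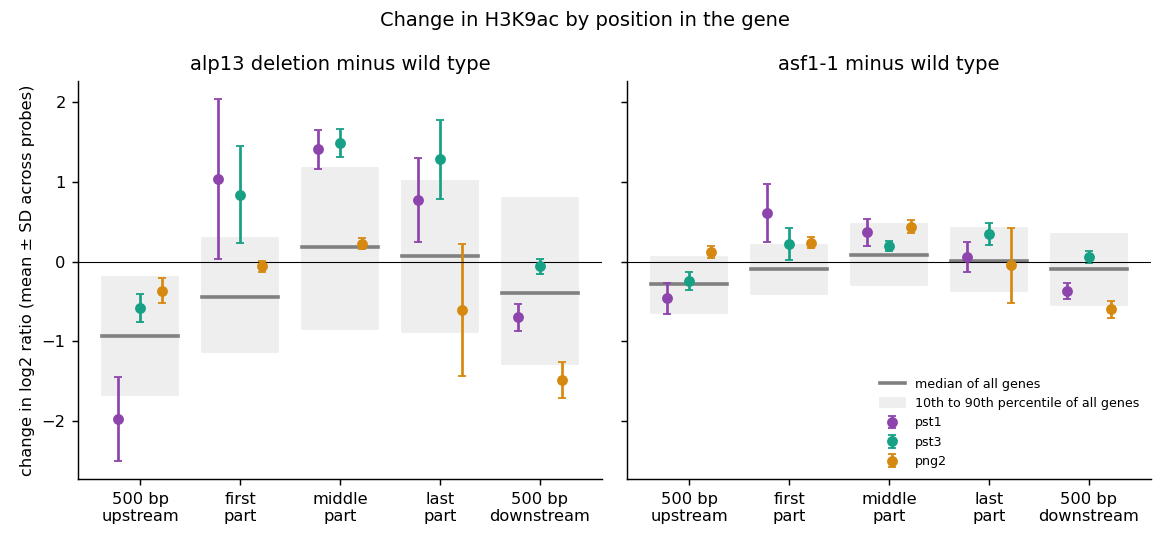
Mean change in H3K9ac log2 ratio against wild type (points, with the SD across probes) for pst1, pst3 and png2 in 5 position classes, for alp13∆ (left) and asf1-1 (right); the grey line is the median and the grey box the 10th to 90th percentile of all genes with at least 3 probes in the class. In alp13∆ pst1 is at -1.98 upstream and 1.41 in the middle part, and png2 is at -1.48 downstream. The parts scale with gene length, so those of pst1 and pst3 are longer than in most genes.

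In png2 the decrease in alp13∆ was larger past the 3′ end than upstream. Upstream of png2 the log ratio was 0.89 in wild type, 0.52 in alp13∆ and 1.00 in asf1-1, and the alp13∆ change of -0.36 ± 0.16 was the 145th highest of 884 genes. In the first part the change was -0.06 and in the middle part 0.22, both under 1.5-fold. In the last part it was -0.61 ± 0.83, a mean over 5 probes that were lower and 5 that were not. That mean was under 1.5-fold without centring (-0.20) and on Cy5 alone (-0.34), and it turned to 0.58 with intergenic centring. All 10 probes downstream were lower in alp13∆, with log ratios of 0.11 in wild type, -1.37 in alp13∆ and -0.49 in asf1-1. That downstream change of -1.48 was the 52nd lowest of 886, whose median was -0.39 and of which 40.1% were lower by 1.5-fold. The stretch also takes in the 260 bp before the start of atx1. Among upstream stretches the median change was -0.93, the 10th percentile -1.68, and 72.4% were lower by 1.5-fold. A decrease past 1.5-fold is thus common there, and -1.48 lies between that median and the 10th percentile.

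The lowered stretch of png2 was a run of 15 probes from 1170.5 to 1870.5 bp past its start. It takes in the 260 bp between png2 and atx1, where the change was -1.60 ± 0.24, and it goes on into atx1, which fell by 0.90 over its body (change -0.90 ± 0.34). With arrays centred on intergenic probes the downstream change of png2 was -0.30, so the call there depends on the centring. On the other side, the 837 bp between png2 and rid1 changed by -0.54 ± 0.27. A long non-coding RNA annotated on the opposite strand, SPNCRNA.5028, spans 1120855 to 1122461, which takes in png2 from its start through most of its length, and DNA probes cannot separate the strands.

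**Figure D3:**
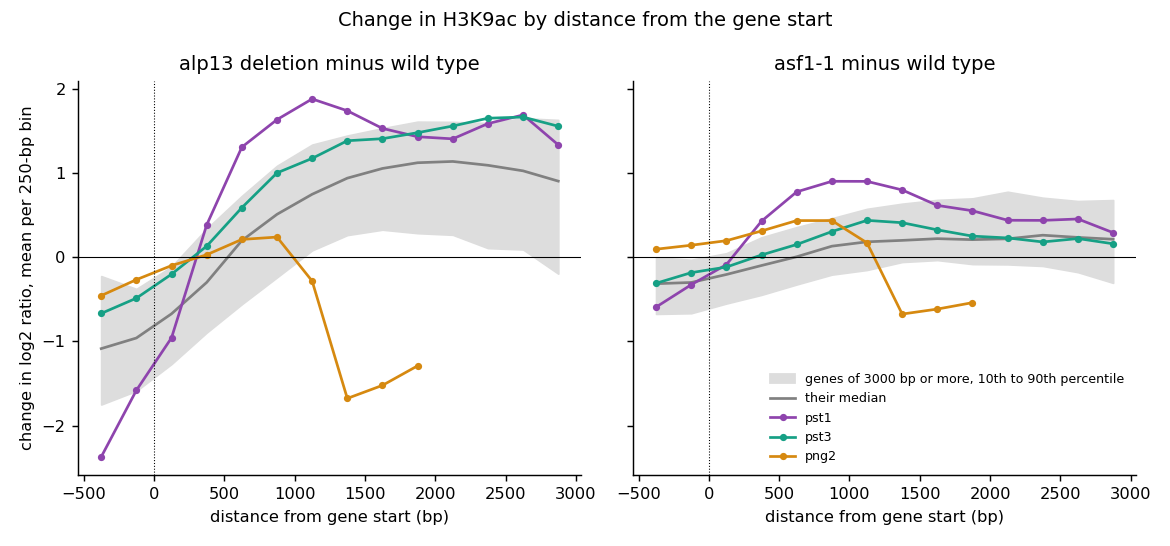
Change in H3K9ac log2 ratio in bins of 250 bp from the gene start for pst1, pst3 and png2, with the median (grey line) and 10th to 90th percentile (grey band) of genes of 3000 bp or more; left alp13∆, right asf1-1, each minus wild type. From 250 to 1500 bp pst1 runs above the band in both mutants (1.88 and 0.90 between 1000 and 1250 bp). In the bin from 1250 bp png2 is at -1.68 and -0.68. That bin takes in the 3′ end of png2, a gene of 1380 bp, and the stretch past it, whereas the band there is the inside of long genes, so the 2 are not alike.

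In asf1-1 no member was called as a whole, and part of pst1 was. The change was 0.34 ± 0.34 for pst1, 0.25 ± 0.16 for pst3 and 0.20 ± 0.35 for png2, so 0 of 3 were called, against 1.69% of genes called higher and 2.14% called lower. Among long genes 3.85% were called higher and the median change was 0.13, and pst1 ranked 29 and pst3 ranked 40 of 130. The median of the 3 members was 0.25, against 0.00 for all genes, where in alp13∆ it was 1.07, against -0.06. With arrays centred on intergenic probes all 3 passed 1.5-fold, and with normexp background correction png2 was at -0.034. The alp13∆ and asf1-1 changes share the wild-type array.

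The first part of pst1 was raised in asf1-1, with log ratios of -0.19 in wild type, 0.85 in alp13∆ and 0.42 in asf1-1. Its asf1-1 change of 0.61 ± 0.36 was the 3rd highest of 866 genes, whose median was -0.10 and of which 0.346% were higher by 1.5-fold. The parts scale with gene length, so the first part of pst1 reaches further from the start than that of most genes. At like distance, between 1000 and 1250 bp, the asf1-1 change of pst1 was 0.90. That was rank 3 of 129 long genes, whose median was 0.18. A run of 23 probes, from 412.5 to 1562.5 bp past the start, was raised with a mean of 0.81, and it starts at the same probe as the alp13∆ run. Further in, the asf1-1 changes were smaller, at 0.16 between 3000 and 3250 bp and 0.06 over the last part. Non-coding RNAs on the opposite strand, SPNCRNA.5666 (2452317 to 2452767) and SPNCRNA.5667 (2452987 to 2453591), are annotated across the raised stretch. Others on that strand, among them SPNCRNA.5668 (2455536 to 2456345) and SPNCRNA.5669 (2456471 to 2456844), lie in the last part, where the change was 0.06. A link between these RNAs and the changes was not tested. The first-part call did not hold with normexp (0.39) or on Cy5 alone (0.33).

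Upstream of pst1 the asf1-1 change was -0.46 ± 0.20, with 4 of 10 probes lower by 1.5-fold, and in pst3 it was -0.25 ± 0.11. Over 884 genes the median upstream change was -0.28, and 13.7% were lower by 1.5-fold. Here pst1 was the 223rd and pst3 the 497th lowest, so neither stood out. The upstream stretch of png2 was at 0.12 ± 0.07. In pst3 0 of 132 probes passed 1.5-fold in either direction in asf1-1. In png2 the values around the 3′ end were low in asf1-1 too, over fewer probes than in alp13∆: 9 probes passed 1.5-fold, and the longest run was 4 probes, from 1270.5 to 1420.5 bp. The downstream change was -0.60 ± 0.10, the 68th lowest of 886, whose median was -0.09 and of which 8.58% were lower by 1.5-fold. Between png2 and atx1, a stretch upstream of atx1, it was -0.64 ± 0.07, against a 10th percentile of -0.64 for upstream stretches. The downstream value was under 1.5-fold on Cy5 alone (-0.56), without centring (-0.43) and with intergenic centring (-0.18).

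Setting the mutants against each other leaves out the wild-type array. The log ratio in asf1-1 was lower than in alp13∆ by 1.5-fold over pst3 (-0.94 ± 0.44) and pst1 (-0.73 ± 0.51), and png2 was at 0.36 ± 0.27. Of all genes 8.8% were lower and 16.1% higher in this comparison, and of long genes 33.1% were lower. Upstream of pst1 asf1-1 lay above alp13∆ by 1.52, and downstream of png2 by 0.88. Shares of all upstream or downstream stretches are not given for this comparison. These differences depend on the centring. With intergenic centring the png2 change was 1.02 in alp13∆ and 0.62 in asf1-1, so the order of the mutants turned. Downstream of png2 the changes were then -0.30 and -0.18.

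The shape of each gene's profile can be compared between arrays over its probes, which share fragments and so are not independent. Across the 121 probes of pst1 the alp13∆ log ratios correlated with wild type at r = -0.507 and those of asf1-1 at r = 0.762. Across the 132 probes of pst3 the values were -0.456 and 0.904. Across the 48 probes of png2 they were 0.765 and 0.847, and the mutants correlated with each other there at r = 0.984. In the Sin3-family genes the alp13∆ array thus ran opposite to wild type, and in png2 it ran the same way. These correlations were not computed for other genes. Medians over genes of 3000 bp or more also changed against the wild-type level. At 250 to 500 bp before the start their wild-type median was 0.65 and their median alp13∆ change -1.09. Between 2000 and 2250 bp these medians were -0.76 and 1.14, so the pattern is not particular to pst1 and pst3.

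Over pst1 and pst3 both channels moved in alp13∆, in opposite directions, and the png2 means of both moved less. With each channel's array median at 0, Cy5 over pst1 changed by 0.62 in alp13∆ and Cy3 by -0.49. For pst3 the values were 0.84 and -0.39, and for png2 -0.15 and -0.01. Over all genes the Cy3 change had a median of -0.01 and a 10th to 90th percentile of -0.28 to 0.28, and over long genes a median of -0.22. The Cy3 changes of pst1 and pst3 were the 12th and 30th lowest of 886, and their Cy5 changes the 50th and 15th highest.

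Within pst1 the largest bin change of the whole-cell extract signal lay between 1000 and 1250 bp, and the largest change of the ratio lay upstream. Between 1000 and 1250 bp, Cy3 changed by -1.27 and Cy5 by 0.64 in alp13∆. At 250 to 500 bp before its start Cy3 changed by 0.76 and Cy5 by -1.58. Over the run raised in asf1-1 the Cy5 change was 0.44 and the Cy3 change -0.36. In the lowered run of png2 Cy5 changed by -0.87 and Cy3 by 0.53 in alp13∆. All probes of the 3 genes and their flanks were well above background in both channels on all 3 arrays, and none was saturated. The part of the Cy3 shifts in the ratio changes beyond these values was not tested.

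**Figure D4:**
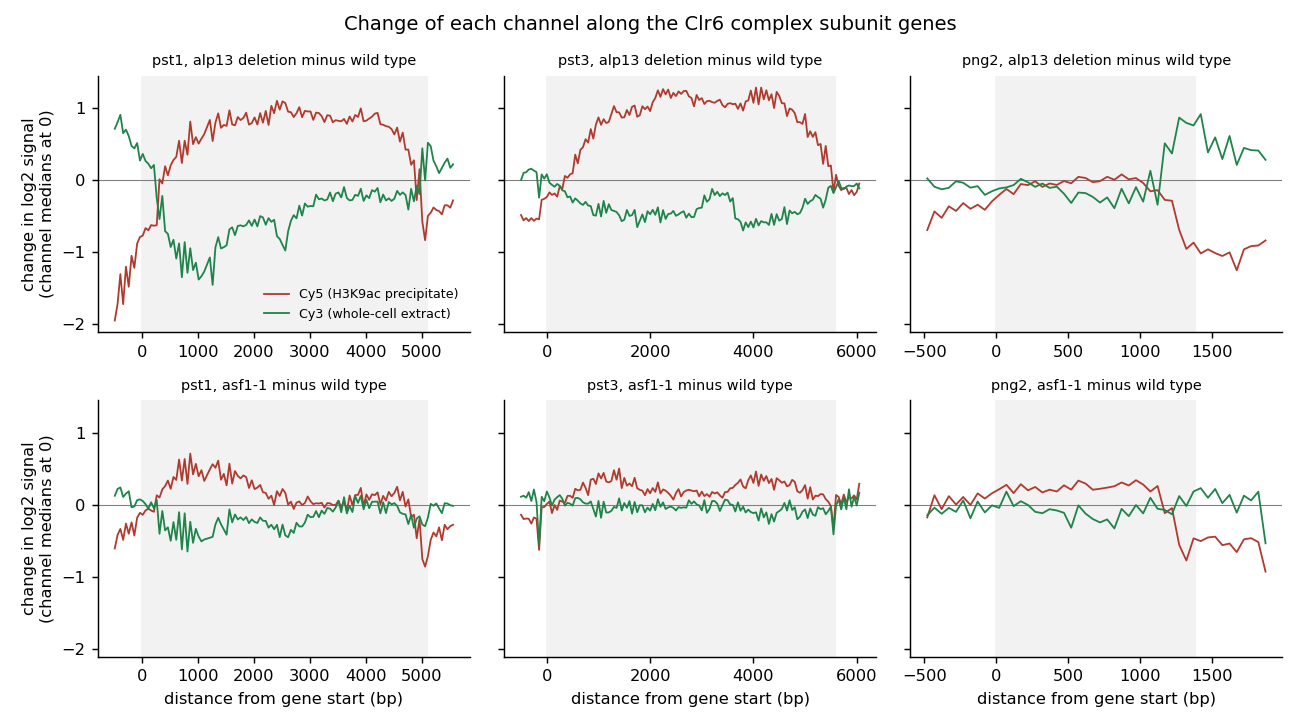
Change of the Cy5 (H3K9ac precipitate) and Cy3 (whole-cell extract) log2 signal against wild type along pst1, pst3 and png2, with each channel's array median at 0; top row alp13∆, bottom row asf1-1, grey shading the gene. In alp13∆ Cy3 dips by over 1 between about 500 and 1500 bp of pst1 and rises past 1250 bp of png2 (0.75 in the bin from 1250 to 1500 bp), each time opposite to Cy5.

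Of the other chromatin genes in the lists, 7 had probes. Of 4 acetyltransferase subunit genes, all of the SAGA complex, which acetylates H3, 1 was higher and 1 lower in alp13∆, and their median was 0.05. The large subunit gene tra1 changed by 1.38 ± 0.30 and sgf29 by -1.11 ± 0.19, while spt8 was at 0.42 and ngg1 at -0.31. The SHREC deacetylase complex gene clr1 was at 0.54, the HIRA histone chaperone subunit gene slm9 at 0.48 and the nucleosome assembly protein gene nap2 at -0.36. In asf1-1 none of these 7 was called, with values from -0.23 for sgf29 to 0.22 for nap2. The lists of other deacetylases, chaperones and H3 methyltransferases had 1 of 13, 2 of 10 and 0 of 3 genes measured.

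**Figure D5:**
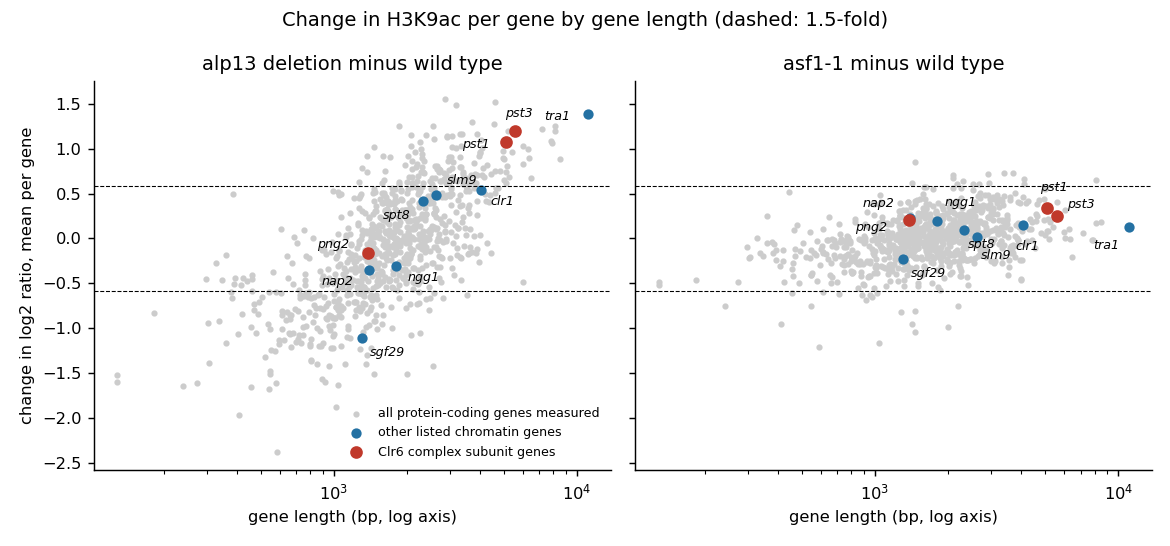
Mean change in H3K9ac log2 ratio per gene against gene length (log axis) for alp13∆ (left) and asf1-1 (right), each minus wild type; grey points are the 886 genes measured, blue points other listed chromatin genes, red points the Clr6 complex subunit genes, and dashed lines mark 1.5-fold. In alp13∆ pst1 (1.07) and pst3 (1.20) lie among the long genes that are mostly above 0, and png2 (-0.16) among shorter genes spread around 0.

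Likeness was measured as the Euclidean distance over 15 log ratios (5 position classes on 3 arrays) among 863 genes. Nearest to pst1 were pex5, for a peroxisomal import receptor (1.43), dbl8 (1.49) and lid2, for a histone demethylase (1.61), against a median distance of 3.05. Nearest to pst3 were mef1, for a mitochondrial translation factor (1.01), the condensin gene cut14 (1.05) and the nuclear import receptor gene mtr10 (1.13), with a median of 2.93. Nearest to png2 were leu1 of leucine synthesis (1.21), tri1 (1.22) and tas3, for a subunit of the RITS silencing complex (1.22), with a median of 3.30. These 9 genes had alp13∆ changes from -0.55 (leu1) to 1.15 (mtr10).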

How the data were processed

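H3K9ac immunoprecipitates (Cy5) and whole-cell extracts (Cy3) of 3 strains were hybridised to 1 array each, per the labels. The deposited intensity values come from Agilent Feature Extraction 10.7.3.1, which subtracted background, detrended and dye-normalised them, per the file headers. The deposited log10 ratio was an alternative. The authors' deposited value table holds scores of unknown scale and was only correlated with the arrays. DNA had been amplified by random-primed PCR, and no source used here names the build of the probe positions.

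Processed Cy5 was divided by processed Cy3, and the log2 value was centred on each array's median, leaving out control and outlier spots (43912 of 43993 probes kept). Array positions were moved by 900 bp (pst3, png2) or 1800 bp (pst1) to reach ASM294v3 positions. Around each gene these offsets gave the highest correlation of GC content with Cy3 (r = 0.605, 0.582 and 0.524 for pst1, pst3 and png2, next best 0.408, 0.366 and 0.343). Gene values are means over probes whose middle lies inside the gene. Python 3.11.15, numpy 2.4.6 and limma 3.58.1 (normexp, offset 50, on median signals since no mean signal is in the files) were used. Gene calling was tested on simulated data. Named genes are the members, their neighbours, listed genes with probes and the 3 nearest in likeness to each. Members, lists and rules were chosen with earlier results of these data known.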

Additional observations from a re-analysis of the deposited data

How the results depend on the processing

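The alp13∆ calls of pst1 and pst3 held in all 13 alternatives (12 planned, 1 added), and the number of members called stayed at 2 except with intergenic centring, where it was 3. The png2 change in alp13∆ turned to 0.25 without centring, 1.02 with intergenic centring, 0.04 with the gene median, 0.14 with probes 250 bp inside and 0.094 over the coding span. In asf1-1, intergenic centring raised the members called from 0 to 3 (pst1 0.76, pst3 0.67, png2 0.62), and normexp put png2 at -0.034. The difference between body and upstream changes turned for png2 to -0.01 with placement 100 bp to the right (alp13∆) and to -0.15 with normexp (asf1-1). In asf1-1 it was 0.80 for pst1 but 0.50 on Cy5 alone, and 0.50 for pst3 but 0.73 with normexp. With intergenic centring the alp13∆ change was 0.48 downstream of pst1 and 0.58 in the last part of png2.

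Genes called in alp13∆, 136 higher and 192 lower, became 307 and 71 without centring, 698 and 3 with intergenic centring, and 66 and 118 on Cy5 alone. In asf1-1, 15 higher and 19 lower became 49 and 10 without centring, 222 and 3 with intergenic centring, 53 and 37 with normexp and 3 and 10 on Cy5 alone, with 12 lower for probes 250 bp inside. The median over all genes was -0.06 in alp13∆ and 0.00 in asf1-1; it was 0.35 and 0.17 without centring, and 1.12 and 0.42 with intergenic centring. Apart from what the choice of centre, channel or probes does by construction, the cause of these shifts was not tested. No paired analysis was possible because each strain has 1 array, and no replicate could be left out.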
